A study of Homo sapiens with 32 samples.

Results

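The genes described here are 8 receptor tyrosine kinases (EGFR, ERBB2, ERBB3, IGF1R, INSR, MET, AXL and EPHA2) and 2 insulin receptor substrates (IRS1 and IRS2). They were taken by name from the protein-coding rows of the deposited count tables, 10 of 19815 protein-coding genes, and each of the 10 names matched 1 row per table. All 10 passed the filter on low counts in both lines. RNA-Seq covered 32 libraries in 16 groups of 2 biological replicates from the human breast cell lines MCF10A and MDA-MB-231. MCF10A is an immortalised, non-tumourigenic mammary epithelial line. MDA-MB-231 is a carcinoma line of metastatic origin and of the triple-negative class, which lacks ERBB2 amplification. Per the paper's methods, the MCF10A medium held added EGF, insulin, hydrocortisone and cholera toxin, which are not listed for MDA-MB-231. Each line also has its own count table. In comparisons between the lines, the line, its medium and any batch shared by its libraries cannot be told apart. Cells of both lines, with no engineered allele named, were kept for 24 hours in normoxia (N) or in 0.5% O2 (H), and some received PP242, an ATP-competitive inhibitor of mTORC1 and mTORC2, at 2.5 µM during 3 hours (NPP without and HPP with hypoxia). Each condition gave libraries of total mRNA (T) and of the polysomal fraction (P), mRNA carried by several ribosomes. In such bulk samples fewer cells of a type and less RNA per cell cannot be told apart.

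Receptor tyrosine kinases bind growth factors outside the cell and phosphorylate tyrosines inside it, and the insulin and IGF1 receptors pass the signal on through IRS1 and IRS2 to PI3K, AKT and mTOR. The pathway is known for feedback. Active mTORC1 and S6 kinase dampen IRS proteins and receptor signalling, and inhibition of the pathway frees FOXO factors, which are known to raise transcription of receptors and of IRS2 in several epithelial tumour lines. Protein and phosphorylation were not measured in these files, so the values below speak only of mRNA.

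Library totals ran from 18340916 to 46032327 counts with a median of 34561484, and 97.39% to 99.18% of the counts fell in protein-coding genes. Levels are given as CPM, counts per 1000000 after scaling of the libraries by TMM within each line, and differences as log2 fold changes with their SE from edgeR's quasi-likelihood test. A gene is called changed at a Benjamini-Hochberg adjusted p under 0.05 over every gene tested, of which MCF10A had 13124 and MDA-MB-231 13510. The labels name the replicates biological and number them separately in the titles, with 1 number for the total and polysomal library of a replicate. How the cultures were raised is not described there, so p-values measure the spread between these samples. A permutation of 2 against 2 libraries cannot go below a two-sided p of 0.333, and no such test of a single gene is given.

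The labels were checked with genes fixed for this purpose. CA9, the carbonic anhydrase induced by HIF, was at 10.4 and 8.64 CPM in total mRNA of normoxic MCF10A and at 522 and 658 CPM in H. In MDA-MB-231 it was at 0.574 and 0.0568 CPM in N and at 19.2 and 13.0 CPM in H. The basal keratin KRT5 lay between 1190 and 3270 CPM in the 16 MCF10A libraries and at or below 0.284 CPM in MDA-MB-231. The mesenchymal cadherin CDH11 lay between 82.8 and 143 CPM in MDA-MB-231 and at or below 0.361 CPM in MCF10A. Of the 8 epithelial markers, the 4 keratins were higher in every MCF10A library than in any of MDA-MB-231, and the other 4 did not separate the lines in that direction. CDH1 was near 0 in both, at no more than 0.361 CPM in MCF10A and 0.568 CPM in MDA-MB-231. EPCAM went against the labels, at no more than 0.461 CPM in MCF10A and 9.86 to 19.1 CPM in MDA-MB-231. DSP had medians of 40.7 and 42.6 CPM, and LAMB3 overlapped (221 to 3340 CPM in MCF10A, 224 to 557 CPM in MDA-MB-231). The mesenchymal marker VIM was high in both lines, from 1690 to 9370 CPM in MCF10A and from 3110 to 6080 CPM in MDA-MB-231. SPARC, from the MDA-MB-231 list, was at no more than 0.796 CPM there and at 91.7 to 203 CPM in MCF10A. The 4 markers of leukocytes, endothelium and hepatocytes summed to at most 1.91 CPM in MCF10A and 3.58 CPM in MDA-MB-231, with PECAM1 the most abundant and CD3E at 0 in every MCF10A library.

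Some MCF10A libraries stood apart in the level of long mRNAs, and this touches most of the genes described here. Their exons span 4141 (EPHA2) to 15941 (EGFR) bases with a median of 10170, against a median of 5312 bases over the genes tested in MCF10A. In the second NPP replicate of total mRNA, genes with over 8000 bases of exon lay a median of 0.57 below their mean over the 16 libraries on the log2 scale (-0.57), and genes under 2000 bases lay 0.56 above it. The second total HPP replicate (-0.37 and 0.32), the first polysomal N replicate (-0.28 and 0.59) and the first polysomal H replicate (-0.14 and 0.55) leaned the same way. In MDA-MB-231 no library differed by more than 0.37 between long and short genes. EGFR was at 202 and 41.3 CPM in the 2 total NPP libraries of MCF10A, and MET at 131 and 40.2 CPM. What part RNA quality had in these values was not tested. Results on MCF10A were therefore also computed without the second total NPP library, which was chosen after seeing the data, and with each library of a comparison left out. Without that NPP library the IRS2 and EPHA2 calls below for HPP were kept.

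**Figure D1:**
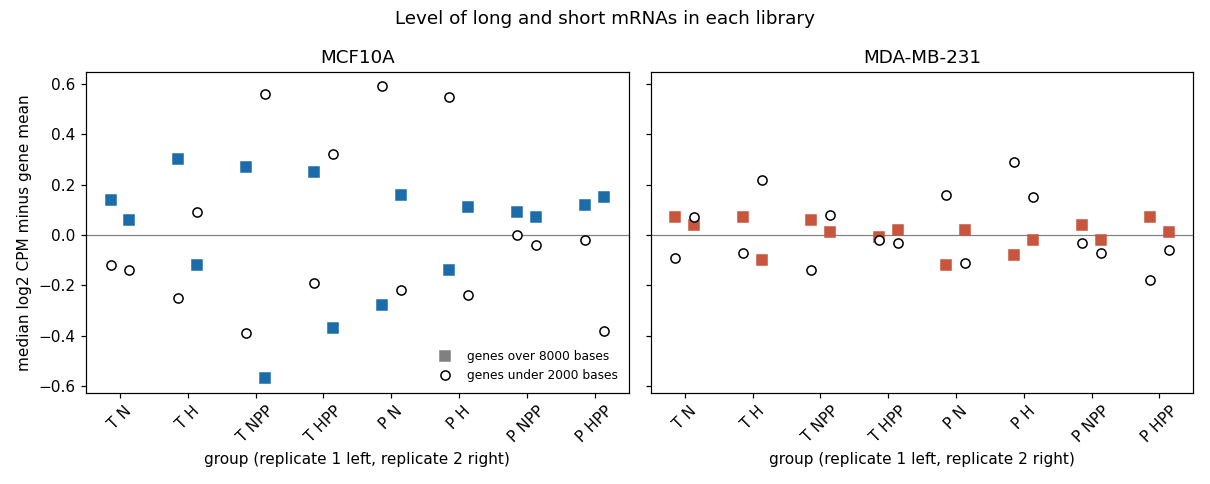
For each library (x axis: group, replicate 1 left and replicate 2 right), squares give the median log2 CPM minus the gene's mean over the line's 16 libraries for genes with over 8000 bases of exon, and circles for genes under 2000 bases. The second total NPP library of MCF10A has the lowest squares, at -0.57, while all MDA-MB-231 squares lie between -0.12 and 0.07.

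In normoxic total mRNA the receptors of the lowest and highest level differed by over 2 orders of magnitude. Levels between genes are compared here as CPM per kb of exon, on a scale shared by both lines. AXL, the receptor for GAS6, was the most abundant member at 56.5 and 85.2 in the 2 MCF10A libraries and 129 and 143 in MDA-MB-231. EPHA2, the ephrin-A receptor prominent in breast epithelium, came next at 37.3 and 44.1 in the MCF10A libraries and at 51.6 and 45.8 in those of MDA-MB-231. At the other end, ERBB3, the kinase-impaired partner of ERBB2, was at 0.338 and 0.342 in MCF10A, and MDA-MB-231 had 0.213 and 0.223. The insulin receptor INSR (0.838 and 0.741, then 0.981 and 0.852) and the IGF1 receptor IGF1R (1.41 and 1.36, then 1.60 and 1.23) stood just above it. The substrates were more abundant per kb than the receptors they serve in both lines. IRS1 was at 14.6 and 14.9 in MCF10A and IRS2 at 6.25 and 5.17. In MDA-MB-231 they were at 9.09 and 7.78 and at 2.33 and 3.05. The libraries of IRS1, MET and ERBB2 overlapped neighbour by neighbour in MCF10A, as did those of EGFR and IRS2. In MDA-MB-231 those of IRS1 and MET overlapped, and those of ERBB2 and IRS2. With the longest transcript in place of all exons, ERBB2 moved from the fifth to the third place in MCF10A (mean 25.9).

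**Figure D2:**
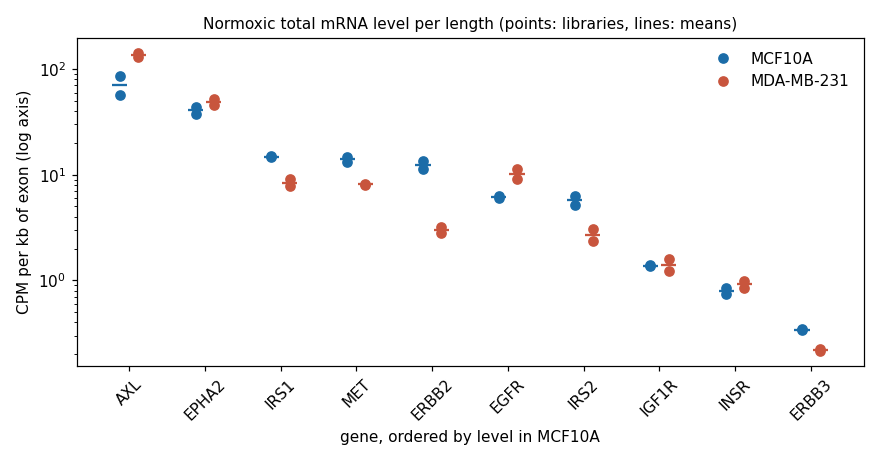
Normoxic total mRNA levels of the 10 genes in CPM per kb of exon on a log axis, with 1 point per library and a line at the mean of 2. AXL is highest and ERBB3 lowest in both lines, and ERBB2 shows the widest gap between the lines.

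The lines were compared in normoxic total mRNA in a joint fit of all 32 libraries, in which 14298 genes were tested. Of the 10 genes, 4 were lower and 1 was higher in MDA-MB-231, beside 20.5% and 20.3% of all genes. ERBB2, the orphan receptor that partners EGFR and ERBB3, was at 11.2 and 13.6 CPM per kb in MCF10A and at 3.18 and 2.79 in MDA-MB-231 on the scale shared by the lines. The libraries of the lines did not overlap, and the difference was -2.05 ± 0.25 (log2, SE, adjusted p = 9.78e-07), a 4.15-fold lower level. AXL was higher by 0.94 ± 0.25 (adjusted p = 0.00415), although without the first MCF10A normoxic library the adjusted p was 0.0996. IRS1 (-0.81 ± 0.31, adjusted p = 0.0426), ERBB3 (-0.64 ± 0.24, 0.0413) and IRS2 (-1.09 ± 0.43, 0.049) were lower in MDA-MB-231, but none of these 3 calls held when any 1 of the 4 normoxic libraries was left out (adjusted p 0.0836 to 0.226). Without the MCF10A library that stood apart, MET joined the lower genes (-0.72, adjusted p = 0.0466) and ERBB3 left them (-0.58, 0.0546). EGFR (0.73 ± 0.54), EPHA2 (0.26 ± 0.26), INSR (0.22 ± 0.39) and IGF1R (0.03 ± 0.39) did not pass the test.

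IRS2 had the largest HPP changes of the 10 genes in both fractions of MCF10A. In MDA-MB-231 its estimates were also the largest (0.84 and 0.81), but they did not pass the test. They lay close to those of MET (0.72 and 0.73) and of polysomal EGFR (0.74). With 1 library left out, those of IRS2 went as low as 0.64 and 0.51. IRS2 lies on chromosome 13 from 109752695 to 109786583 on the minus strand (GRCh38, GENCODE 44), and a gene without a symbol overlaps it. No strand was stated for the counts, so their reads cannot be told apart where they overlap. The IRS2 promoter is shown because FOXO and HIF factors are known to act near genes of this pathway. The RefSeq sequence of the 150 bases before the start (GRCh38.p14, chr13:109786584-109786733, minus strand, 69.3% G or C) reads as follows, in lower case throughout because it holds none of the motifs searched.

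IRS2: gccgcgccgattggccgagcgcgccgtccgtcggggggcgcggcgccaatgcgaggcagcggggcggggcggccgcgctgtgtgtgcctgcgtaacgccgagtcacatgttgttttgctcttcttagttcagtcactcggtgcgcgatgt

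In total mRNA of MCF10A, IRS2 was at 43.4 and 35.7 CPM in N, 196 and 128 CPM in H, 95.0 and 36.8 CPM in NPP, and 201 and 139 CPM in HPP. The H and HPP libraries all lay above both normoxic ones, and the low NPP value came from the library that stood apart. In polysomal mRNA it was at 24.1 and 38.2 CPM in N, 95.4 and 177 CPM in H, 100 and 91.1 CPM in NPP, and 145 and 284 CPM in HPP, so that every treated library lay above both normoxic ones. HPP raised IRS2 by 2.10 ± 0.50 in total mRNA (log2, 4.29-fold, adjusted p = 0.0163) and by 2.79 ± 0.51 in polysomal mRNA (6.90-fold, adjusted p = 0.00342). The polysomal call held when each of the 4 libraries was left out (adjusted p 0.00522 to 0.0366). The total call was lost without the first N (adjusted p = 0.094), the second N (0.145) or the first HPP library (0.0574), and in a fit to 1 fraction (0.0514).

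In H alone the change was 2.03 ± 0.50 in total mRNA (4.10-fold) and 2.13 ± 0.50 in polysomal mRNA (4.38-fold), but the adjusted p of 0.084 and 0.0663 missed the threshold. Without the library that stood apart, which belongs to neither group, the same comparisons passed (2.09, adjusted p = 0.0225, and 2.20, 0.0167). They passed also with DESeq2 (adjusted p = 0.00209 and 0.00078) and with a replicate block within each fraction (0.00538 and 0.00401). The difference between HPP and H was 0.07 ± 0.48 in total and 0.66 ± 0.48 in polysomal mRNA, with neither past the test. PP242 in normoxia gave 1.62 ± 0.49 in polysomal mRNA (adjusted p = 0.152, 0.0274 with DESeq2 and 0.0139 with that block) and 0.74 ± 0.48 in total mRNA (0.705, and 1.26 ± 0.47 with an adjusted p of 0.527 without the library that stood apart).

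In MDA-MB-231 no IRS2 change passed the test in the fit described here, nor did any difference between the lines in its treatment changes. Total mRNA held 21.8 and 29.7 CPM in N, 36.2 and 21.6 CPM in H, 32.9 and 48.1 CPM in NPP, and 38.7 and 53.7 CPM in HPP. Both PP242 groups lay above normoxia while H overlapped it. These CPM are scaled within the line and are not compared with those of MCF10A. On the scale shared by the lines, the normoxic polysomal libraries overlapped. They were at 2.13 and 3.83 CPM per kb in MDA-MB-231 and at 3.17 and 5.23 in MCF10A. The change in HPP was 0.84 ± 0.29 in total (adjusted p = 0.067) and 0.81 ± 0.29 in polysomal mRNA (0.0602), short of the threshold, and H gave 0.17 ± 0.29 and 0.03 ± 0.29. Both HPP changes passed with DESeq2 (0.0216 and 0.0328) and with no filter beyond 1 read (0.000206 and 0.000164), and the polysomal one with a replicate block within each fraction (0.0437) and a fit to 1 fraction (0.0307). The total one also passed with a replicate block. In all, IRS2 was called there in 3 of 10 settings for total and 6 of 10 for polysomal mRNA, those that left out a library included. The difference between the lines in the polysomal HPP change was -2.00 ± 0.61 (adjusted p = 0.0727), and -2.11 (0.0246) without the MCF10A library that stood apart. It was -1.16 ± 0.60 (adjusted p = 0.378) for total HPP, -1.80 ± 0.61 (0.369) and -2.18 ± 0.61 (0.194) for total and polysomal H, and -0.02 ± 0.60 and -1.01 ± 0.60 for NPP.

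EPHA2 was the receptor with the clearest changes in MCF10A. It lies on chromosome 1 from 16124337 to 16156069 on the minus strand, and an antisense gene, EPHA2-AS1, overlaps it. No strand was stated for the counts, so reads of the pair cannot be told apart. The 150 bases before its start (chr1:16156070-16156219, minus strand, 63.3% G or C) are given as the counterpart to IRS2, with capitals marking a TGACGTCA element, the palindromic cAMP response element, at position -51 from the start.

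EPHA2: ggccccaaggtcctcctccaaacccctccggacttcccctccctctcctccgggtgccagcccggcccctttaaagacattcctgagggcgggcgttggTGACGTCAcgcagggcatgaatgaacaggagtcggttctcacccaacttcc

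In total mRNA of MCF10A, EPHA2 was at 131 and 154 CPM in N, 97.7 and 77.2 CPM in H, 199 and 250 CPM in NPP, and 248 and 307 CPM in HPP. In polysomal mRNA it was at 113 and 144 CPM in N, 72.7 and 87.8 CPM in H, 270 and 204 CPM in NPP, and 249.2 and 382.9 CPM in HPP. In both fractions the hypoxic libraries lay below normoxia and all libraries with PP242 lay above it, with no overlap. HPP raised EPHA2 by 0.96 ± 0.28 in total (1.94-fold, adjusted p = 0.0421) and 1.30 ± 0.29 in polysomal mRNA (2.46-fold, 0.0081). Against H alone, PP242 within hypoxia gave 1.67 ± 0.29 in total (3.18-fold, adjusted p = 0.00889) and 1.98 ± 0.29 in polysomal mRNA (3.94-fold, 0.004). The changes in H (-0.71 ± 0.28 and -0.68 ± 0.28) and NPP (0.65 ± 0.28 and 0.88 ± 0.28) did not pass the test. The total HPP call was lost when any of its 4 libraries was left out (adjusted p 0.0585 to 0.248), and the polysomal call without the first N (0.0797) or second HPP library (0.0905). The total call against H was lost without the first H (0.0652), second H (0.132) or second HPP library (0.106), and the polysomal call against H without the first H library (0.0585). Both total calls were also lost in a fit to 1 fraction (adjusted p = 0.0736 against N and 0.0573 against H), and the one against N with no filter beyond 1 read (0.0658).

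In MDA-MB-231, EPHA2 in total mRNA was at 246 and 227 CPM in N, 285 and 193 CPM in H, 146 and 205 CPM in NPP, and 224 and 268 CPM in HPP. Both NPP libraries lay below normoxia, and HPP overlapped it. The change in HPP was 0.06 ± 0.19 in total and 0.00 ± 0.19 in polysomal mRNA, with an interval of 2 SE from -0.38 to 0.38 for the latter. That in NPP was -0.43 ± 0.19 and -0.58 ± 0.19 (adjusted p = 0.458 and 0.174, the latter 0.0464 with DESeq2). The lines differed in the polysomal HPP change of EPHA2 by -1.33 ± 0.36 (adjusted p = 0.0446 in the joint fit). That call was lost without the first N library of either line (adjusted p = 0.186 in MCF10A, 0.108 in MDA-MB-231), the second N library of either line (0.0507 and 0.143), the second HPP library of MCF10A (0.3), or either HPP library of MDA-MB-231 (0.108 and 0.192).

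**Figure D3:**
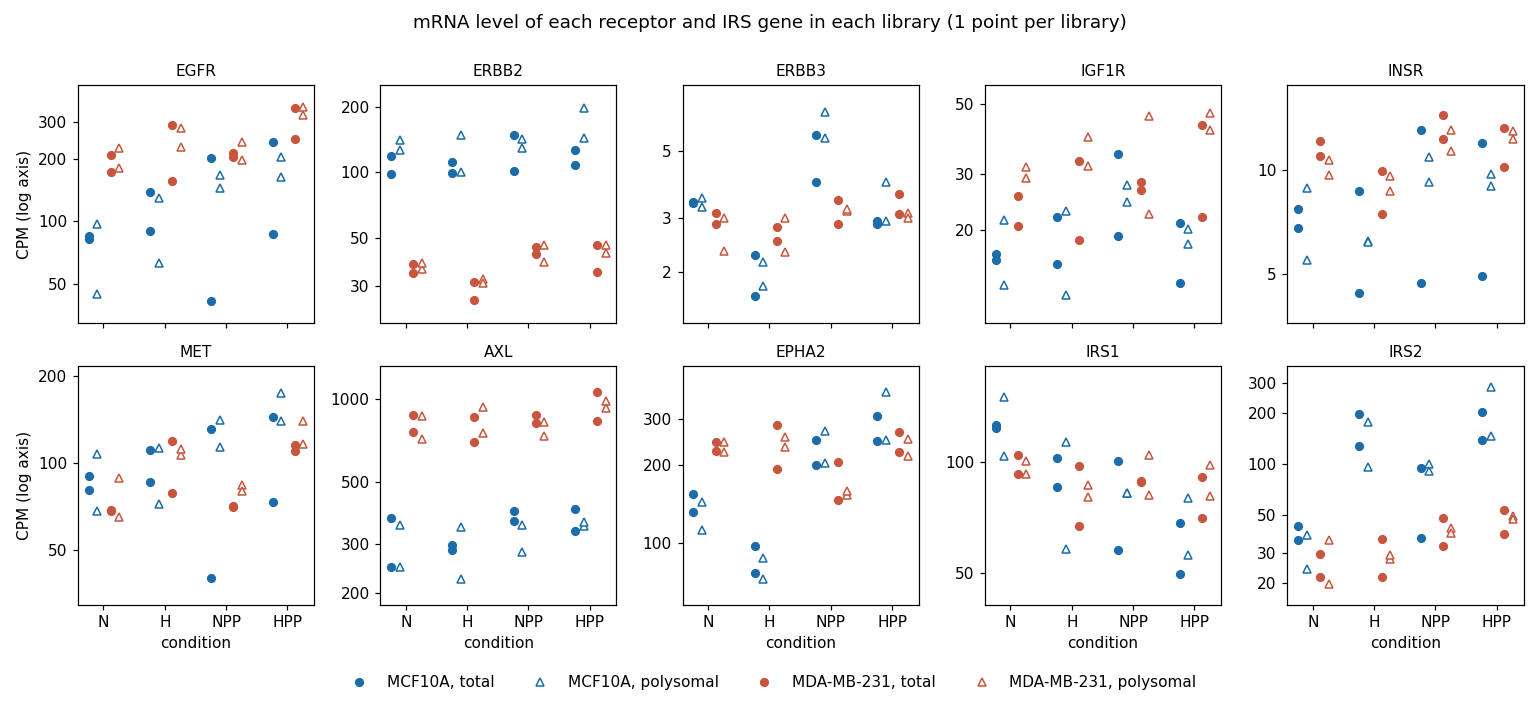
CPM of each gene (log axis) in every library by condition, with MCF10A in blue and MDA-MB-231 in red, filled circles for total and open triangles for polysomal mRNA. IRS2 rises above its normoxic range in H and HPP of MCF10A, EPHA2 dips in H and rises with PP242 in MCF10A, and MET in MDA-MB-231 is highest in H and HPP.

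EGFR and MET rose in MDA-MB-231 under HPP. EGFR is the receptor for EGF, TGFA and AREG, and MET the receptor for HGF. In total mRNA MET was at 68.4 and 69.0 CPM in N, 119 and 78.9 CPM in H, 70.5 and 71.4 CPM in NPP, and 116 and 110 CPM in HPP. In polysomal mRNA it was at 65.4 and 89.1 CPM in N, 106.4 and 111.7 CPM in H, 84.1 and 80.2 CPM in NPP, and 140 and 117 CPM in HPP. Both hypoxic groups lay above normoxia in each fraction. The NPP libraries lay just above both normoxic ones in total mRNA and between them in polysomal mRNA. The HPP change was 0.72 ± 0.18 in total (1.64-fold, adjusted p = 0.0206) and 0.73 ± 0.18 in polysomal mRNA (1.66-fold, 0.0131). The change in H was 0.53 ± 0.18 and 0.50 ± 0.18, and did not pass (adjusted p = 0.218 and 0.18).

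EGFR in polysomal mRNA was at 180 and 227 CPM in N, 229 and 280 CPM in H, 241 and 198 CPM in NPP, and 355 and 324 CPM in HPP, with the HPP libraries above all others. Its change in HPP was 0.74 ± 0.25 (1.67-fold, adjusted p = 0.0481), and in total mRNA 0.65 ± 0.25 (0.0922, but 0.04 with DESeq2, 0.0309 with an offset for transcript length and 0.00211 with no filter beyond 1 read). The total MET call was lost without any 1 of its 4 libraries (adjusted p 0.0613 to 0.111), the polysomal MET call without the first N (0.104) or first HPP library (0.138), and the EGFR call without any 1 of its 4 (0.085 to 0.218). EGFR is overlapped by the antisense gene EGFR-AS1. In MCF10A the HPP changes of EGFR were 0.97 ± 0.68 in total and 1.37 ± 0.68 in polysomal mRNA and those of MET 0.34 ± 0.49 and 0.84 ± 0.49, none past the test, and with these SE a change of the size seen in MDA-MB-231 was not detectable. Among 11 settings, the EGFR change was called in 0 for total and 3 for polysomal mRNA. Without the library that stood apart, the polysomal EGFR change was 1.44 ± 0.49 with an adjusted p of 0.0491, and with a replicate block within each fraction it was 1.45 ± 0.48 (0.036).

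IRS1, the other substrate, had lower values in HPP of MCF10A. In total mRNA it was at 124 and 127 CPM in N, 102.9 and 85.7 CPM in H, 101.2 and 57.7 CPM in NPP, and 68.4 and 49.8 CPM in HPP. Every treated library lay below both normoxic ones. The HPP difference was -1.09 ± 0.37 in total (adjusted p = 0.0701) and -0.91 ± 0.37 in polysomal mRNA (0.0983), short of the threshold. That difference was called in 4 of 11 settings for total and 2 of 11 for polysomal mRNA. It was -0.98 (adjusted p = 0.0102) and -1.07 (0.00489) with an offset for transcript length, and -1.05 (0.0459) and -0.84 (0.0775) without the library that stood apart. With a replicate block within each fraction it was -1.12 (0.00958) and -0.91 (0.0186). In MDA-MB-231 the HPP difference was -0.29 ± 0.19 and -0.11 ± 0.19. The lines differed in it by 0.89 ± 0.44 in total mRNA (adjusted p = 0.337).

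The remaining receptors had no call under any treatment in either line in the fit described here. In other settings ERBB2 was called for HPP against H in MDA-MB-231 (in 2 of 10 settings for total and 5 of 10 for polysomal mRNA) and IGF1R for polysomal HPP against N in 1 (adjusted p = 0.021). ERBB2 ranged from 98.5 to 199 CPM over the 16 MCF10A libraries. In MDA-MB-231 its total mRNA was at 31.3 and 25.7 CPM in H and 34.8 and 46.5 CPM in HPP, and the difference of HPP from H was 0.51 ± 0.16 (adjusted p = 0.0931), or 0.49 ± 0.16 (0.0603) in polysomal mRNA. ERBB3 in total mRNA of MCF10A was at 3.37 and 3.39 CPM in N, 2.27 and 1.67 CPM in H, and 5.63 and 3.94 CPM in NPP, so that H lay below and NPP above normoxia. The differences were -0.78 ± 0.29 (adjusted p = 0.31) and 0.50 ± 0.29 (0.649). AXL moved by at most 0.29 in any treatment contrast with normoxia in either line, on the log2 scale. The IGF1R differences from normoxia lay between 0.02 and 0.72, and those of INSR between -0.41 and 0.49. In total mRNA of MDA-MB-231 INSR was at 9.99 and 7.47 CPM in H, below both normoxic libraries, and its difference of -0.41 had an interval of 2 SE from -0.78 to -0.03 (adjusted p = 0.385). That of HPP from H was 0.42, with an interval from 0.05 to 0.79 (adjusted p = 0.244).

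Counted over the 10 genes, HPP called 2 higher and 0 lower in total mRNA of MCF10A (IRS2 and EPHA2), beside 7.43% and 7.47% of all tested genes, and the same 2 higher and 0 lower in polysomal mRNA, beside 10.2% and 11.9%. In MDA-MB-231 it called 1 higher (MET) and 0 lower in total mRNA, beside 6.31% and 6.91%, and 2 higher (EGFR and MET) and 0 lower in polysomal mRNA, beside 9.71% and 9.73%. HPP against H called 1 higher (EPHA2) and 0 lower in both fractions of MCF10A, beside 1.33% and 2.42% in total and 2.63% and 3.87% in polysomal mRNA. In MDA-MB-231 the fit described here called 0 of 10 in either fraction for HPP against H, beside 1.70% higher and 2.08% lower in total and 4.86% and 6.62% in polysomal mRNA. There, 3 genes in each fraction had an unadjusted p under 0.05, beside 18.5% and 26.6% of all genes, and DESeq2 called 1 in total (ERBB2) and 2 in polysomal mRNA (ERBB2 and IRS2). In edgeR, no filter beyond 1 read gave 1 in total and 2 in polysomal mRNA, fits to 1 fraction gave 2 in polysomal mRNA, and either replicate block gave 1 there. The median log2 fold change of the 10 under HPP was 0.24 and 0.37 in total and polysomal mRNA of MCF10A and 0.19 and 0.29 in MDA-MB-231, where the median of all genes was -0.01, -0.04, -0.05 and 0.01.

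Neither hypoxia nor PP242 alone gave a call among the 10 in the fit described here, although other settings of edgeR and DESeq2 gave some. For H, all genes gave 1.54% and 1.49% of calls in total and polysomal mRNA of MCF10A and 1.27% and 2.29% in MDA-MB-231. At an unadjusted p under 0.05, 3 and 3 of the 10 passed in MCF10A, against 2 and 1 for MDA-MB-231, beside 10.9%, 12.5%, 12.7% and 17.2% of all genes. DESeq2 called 1 in each fraction of MCF10A (IRS2) and 0 in MDA-MB-231. In edgeR, IRS2 was called in both fractions of MCF10A with no filter beyond 1 read, with the length offset and with a replicate block within each fraction, 5 of 11 settings in each fraction with DESeq2 and the fit without the library that stood apart. For NPP, all genes gave 0.648% and 0.823% in MCF10A, and 0.555% and 1.95% for MDA-MB-231. Here 1 and 3 passed unadjusted in MCF10A, with 2 and 1 for MDA-MB-231, beside 9.54%, 13.3%, 10.3% and 13.6% of all genes. DESeq2 called IRS2 in polysomal mRNA of MCF10A and EPHA2 in polysomal mRNA of MDA-MB-231. In edgeR, IRS2 was called for polysomal NPP of MCF10A with the length offset and with that block, and for total NPP of MDA-MB-231 with no filter beyond 1 read (adjusted p = 0.0319). All treatment contrasts with normoxia in a line and fraction share the same 2 normoxic libraries.

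**Figure D4:**
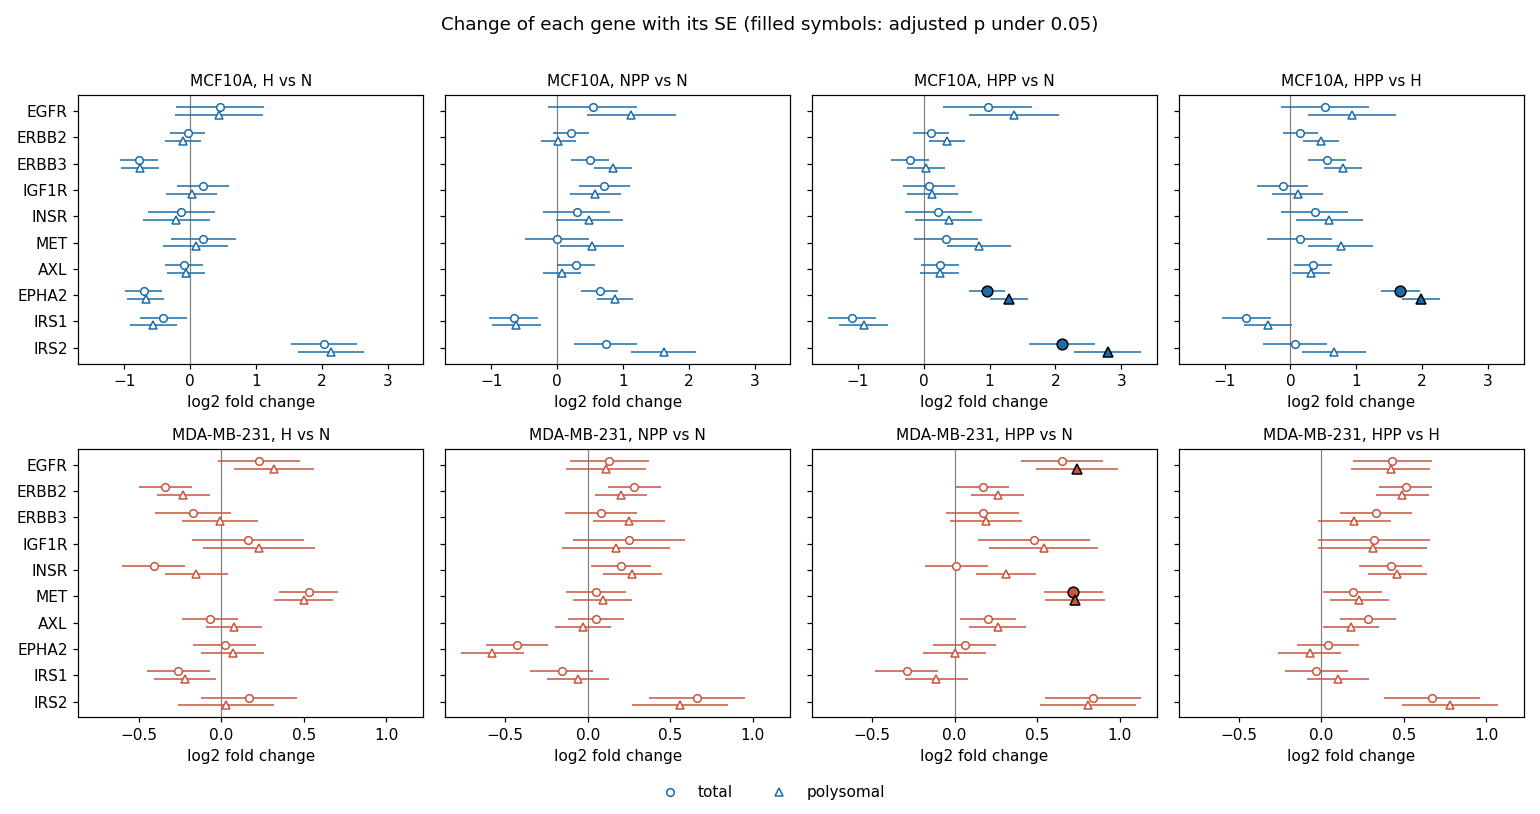
Log2 fold change with its SE for each gene in total (circles) and polysomal (triangles) mRNA, with MCF10A above and MDA-MB-231 below on different x scales, and filled symbols at an adjusted p under 0.05. Filled symbols are seen for IRS2 and EPHA2 in MCF10A and for MET and EGFR in MDA-MB-231. The fractions of a gene lie apart in some MCF10A contrasts, as for IRS2 in NPP (0.74 in total and 1.62 in polysomal mRNA).

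Polysome association was compared with total mRNA to ask whether any of these mRNAs changed in translational efficiency (Te), the polysomal change minus the total change. No member passed for any treatment, and 0 had an unadjusted p under 0.05, which between 0.175% and 3.36% of all genes did. Over all genes the same test called 0.0% in each of H, NPP and HPP of MCF10A, and 0.0148%, 0.34% and 0.696% in MDA-MB-231. DESeq2 also called 0 of 10. The Te values of the 10 lay between -0.21 and 0.88 in MCF10A and between -0.15 and 0.30 in MDA-MB-231. That of IRS2 under HPP was 0.68 ± 0.68 in MCF10A, against -0.04 ± 0.40 for MDA-MB-231, and that of EPHA2 0.34 ± 0.40 and -0.06 ± 0.27. In MCF10A a change can exceed 2 SE and still miss the threshold, as IRS2 did in total H (2.03 ± 0.50, adjusted p = 0.084). A Te change without a call is therefore not excluded there. In normoxia the 10 mRNAs did not differ in level between polysomal and total mRNA beyond the test (-0.34 to 0.30 in MCF10A and -0.19 to 0.39 in MDA-MB-231), beside 0.0% and 13.1% of all genes. None of the 10 had an unadjusted p under 0.05, beside 12.6% and 29.3% of all genes, and DESeq2 called 0. With a replicate block within each fraction, 2189 genes were called in MCF10A and 0 of the 10. The MCF10A values depended on the setting, with the lowest at -1.25 for EGFR and -1.04 for IRS2. Their lowest adjusted p in any setting were 0.128 and 0.0611.

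The treatment effects were also compared between lines. For the polysomal HPP change, 1 of 10 differed (EPHA2, described above), beside 3.60% of all genes. For total HPP 0 differed, beside 3.31%, with 1 at an unadjusted p under 0.05 (15.4% of all genes). For H, 0 differed in total and polysomal mRNA, beside 0.266% and 0.329%, with 2 and 1 at an unadjusted p under 0.05 (7.47% and 6.49% of all genes). For NPP, 0 differed, beside 0.056% and 0.126%, with 1 and 1 unadjusted (4.13% and 4.4% of all genes). DESeq2 called 0 in the total contrasts, IRS2 in polysomal H, EPHA2 in polysomal NPP, and both in polysomal HPP (IRS2 by -2.06, adjusted p = 0.0135, and EPHA2 by -1.37, adjusted p = 0.00666). In edgeR, a replicate block within each fraction called 1 in polysomal H and 2 in polysomal HPP, the length offset 2 in polysomal HPP, and no filter beyond 1 read 0.

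Several ligands of these receptors rose with HPP, among them the EGFR ligand AREG. The pathway lists are read beside the shares of all genes given above. Of 16 ligand genes tested in MCF10A, 3 rose and 1 fell (NRG1) in total mRNA under HPP, and 4 rose and 0 fell in polysomal mRNA. The list's median log2 fold change was 0.39 and 0.49. AREG was at 253 and 186 CPM in total mRNA in N, 189 and 153 CPM in H, 513 and 766 CPM in NPP, and 1262 and 1401 CPM in HPP. Its PP242 libraries lay well above the others, and HPP raised it by 2.60 ± 0.32 (6.06-fold, adjusted p = 0.000483) and by 2.82 ± 0.32 in polysomal mRNA (7.08-fold). The ephrin-A ligands EFNA1 and EFNA3, which bind EPHA2, also rose. EFNA1 was at 6.50 and 7.50 CPM in N, 3.94 and 6.27 CPM in H, 19.0 and 33.1 CPM in NPP, and 23.9 and 30.3 CPM in HPP, and rose by 1.95 ± 0.33 (adjusted p = 0.00246). EFNA3 was at 4.41 and 5.42 CPM in N, 21.6 and 25.7 CPM in H, 3.93 and 7.33 CPM in NPP, and 33.7 and 35.4 CPM in HPP, so that it was high in the hypoxic groups where EFNA1 was high in the PP242 groups. In MDA-MB-231, 2 of 15 rose and 0 fell in both fractions, with medians of 0.12 and 0.16. These were EFNA3 (2.27 ± 0.29, adjusted p = 0.000261) and EFNA1 (0.92 ± 0.29, 0.0487). Both were low in total mRNA there. EFNA3 was at 0.933 and 1.36 CPM in N and 5.39 and 5.49 CPM in HPP. EFNA1 was at 1.54 and 1.99 CPM in N and 3.8 and 2.83 CPM in HPP.

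Genes that restrain receptors were called in shares near those of all genes. Of 20 tested in MCF10A, 2 rose and 2 fell in total mRNA under HPP, beside 7.43% and 7.47% of all genes, and 2 rose and 3 fell in polysomal mRNA, beside 10.2% and 11.9%. In MDA-MB-231, 2 of 19 rose and 2 fell in each fraction. The medians lay between -0.06 and 0.06. ERRFI1, the inhibitor of EGFR also known as MIG6, was at 101.8 and 86.5 CPM in total mRNA of normoxic MCF10A, 410 and 400 CPM in H, 256 and 139 CPM in NPP, and 486 and 406 CPM in HPP. It rose by 2.24 ± 0.33 in total mRNA (4.73-fold, adjusted p = 0.00131), with its highest total values in both hypoxic groups, as for IRS2. In polysomal mRNA its NPP libraries (265.7 and 348.0 CPM) overlapped H (339.1 and 444.1 CPM). The polysomal NPP change was called too (1.72 ± 0.33, adjusted p = 0.0324). GRB10, an adaptor that inhibits the insulin receptor, fell by 1.99 in MCF10A (SE 0.29, adjusted p = 0.0012), from 13.2 and 15.7 CPM in N to 3.62 and 3.63 CPM in HPP. SOCS3, which targets cytokine receptors and IRS proteins, fell by 2.04 in MCF10A (SE 0.31, adjusted p = 0.00156) and by 0.88 in MDA-MB-231 (SE 0.20, 0.0111). In total mRNA of MCF10A it was called lower in H (-1.57, adjusted p = 0.0265) and not in NPP (-0.14, 0.897). In MDA-MB-231 it was called lower in NPP (-1.10, adjusted p = 0.0229) and not in H (-0.36, 0.486). ERRFI1 rose in MDA-MB-231 too (1.22, adjusted p = 0.0273). CBLB, a ubiquitin ligase for receptors, rose by 1.91 in MCF10A (adjusted p = 0.00703) and by 0.79 ± 0.22 in MDA-MB-231 (0.0272), where SOCS4 fell by 0.75 (SE 0.18, 0.0144) in total mRNA, while its polysomal change was -0.30 (0.262).

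Among 22 adaptor and PI3K genes, 1 rose and 1 fell in each fraction of MCF10A under HPP, with medians of -0.35 and -0.05. In MDA-MB-231, 2 rose and 1 fell in total mRNA and 3 rose and 1 fell in polysomal mRNA, with medians of 0.03 and 0.06. PIK3CD, the p110δ catalytic subunit of PI3K, rose by 1.69 ± 0.26 in MCF10A (adjusted p = 0.00144) and 0.99 ± 0.24 in MDA-MB-231 (0.0141). PIK3R3, the p55γ regulatory subunit, fell by 2.40 (SE 0.43, 0.00392) and by 0.98 (SE 0.20, 0.00752). It was at 5.82 and 5.67 CPM in N, 7.76 and 4.28 CPM in H, 1.40 and 0.586 CPM in NPP, and 1.30 and 0.873 CPM in HPP of MCF10A, low in every PP242 library. The docking protein GAB2 rose by 0.69 ± 0.21 in MDA-MB-231 (0.0397).

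FOXO targets other than the genes described here were called under HPP in 1 direction only, upwards. Of 11 tested in MCF10A, 4 rose and 0 fell in both fractions under HPP, with medians of 1.76 and 1.54. Of all genes, 7.43% in total and 10.2% in polysomal mRNA were higher. NPP called 0 and 3 of the 11 higher (0.343% and 0.472% of all genes), and H called 0 and 1 (1.39% and 1.33%). HPP against H called 2 higher in each fraction (1.33% and 2.63% of all genes). It called 1 lower in total mRNA (2.42%). Of 12 in MDA-MB-231, 5 rose in total and 7 in polysomal mRNA and 0 fell, with medians of 0.79 and 0.80. Of all genes, 6.31% and 9.71% were higher. NPP called 1 and 5 of the 12 higher (0.377% and 0.762% of all genes), and H called 0 and 0 (0.977% and 1.78%). HPP against H called 4 and 8 higher and 0 lower (1.70% and 4.86% of all genes higher). What part FOXO factors had in these values was not tested. CCNG2, an atypical cyclin, rose by 3.14 ± 0.48 in MCF10A (8.83-fold, adjusted p = 0.00154) and 2.94 ± 0.26 in MDA-MB-231 (7.66-fold, 1.64e-05). The transcriptional repressor BCL6 rose by 1.78 ± 0.35 (0.00603) and 0.90 ± 0.18 (0.00488). CITED2, which is also a HIF target, rose by 2.46 ± 0.44 in MCF10A (0.00348), and SESN3, an inhibitor of mTORC1, by 1.81 ± 0.22 in MDA-MB-231 (0.000223). In the hypoxia check list, 4 of 6 genes rose in total mRNA under HPP in both lines, with medians of 2.26 and 1.43.

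Of the other receptor tyrosine kinases, 30 were tested in MCF10A, of which 4 rose and 0 fell in total mRNA and 4 rose and 1 fell in polysomal mRNA under HPP, with medians of 0.32 and 0.77. In MDA-MB-231, 3 of 33 rose and 1 fell in total mRNA and 5 rose and 1 fell in polysomal mRNA, with medians of 0.20 and 0.38. MST1R, a relative of MET, was at 2.19 and 1.85 CPM in N and 6.33 and 5.20 CPM in HPP of MCF10A (1.51 ± 0.36, adjusted p = 0.0168), and it rose by 0.85 in MDA-MB-231 (0.049). AATK rose in MCF10A by 1.90 ± 0.37 (0.0062). The endothelial receptor TIE1 was called too (0.0145) but lay at or below 0.541 CPM in every MCF10A library. ROR1, a WNT5A receptor, fell in MDA-MB-231 by 1.40 (SE 0.26, 0.00378), from 56.7 and 35.9 CPM to 19.5 and 15.5 CPM. EPHB3, an ephrin-B receptor, rose by 1.72 ± 0.36 (0.00754) there and by 1.39 in polysomal mRNA of MCF10A (0.044). Its level in total mRNA of MDA-MB-231 was low, at 0.466 and 1.14 CPM in N and 2.6 and 2.43 CPM in HPP. KDR, a VEGF receptor, rose by 0.82 ± 0.21 in MDA-MB-231 (0.0219).

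**Figure D5:**
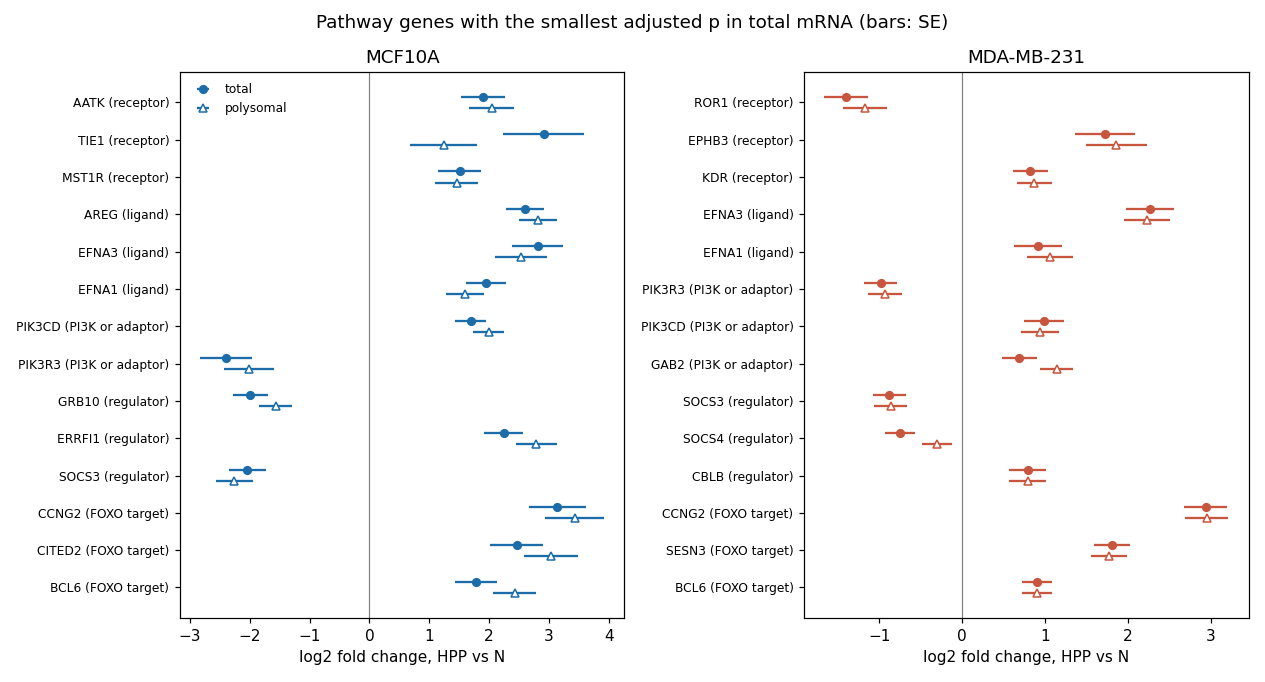
Log2 fold change under HPP against N with its SE for up to 3 genes per list and line, those with the smallest adjusted p in total mRNA, in total (filled circles) and polysomal (open triangles) mRNA, without the hypoxia check list. Of the genes drawn, CCNG2 rises furthest in total mRNA in both lines, and PIK3R3 and SOCS3 lie below 0.

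The genes whose levels moved most like those of the 2 members with most calls were sought over the 32 libraries, after subtracting the mean of each line and fraction, among 12374 genes tested in both lines. For IRS2 they were ZMYND8 (Pearson r = 0.930), STAT6 (0.924) and PPP1R3B (0.912). For EPHA2 they were ITPRIP (0.898), the EGFR ligand HBEGF (0.896) and SPSB1 (0.880). These values describe the same libraries, conditions and depth for each pair of genes and carry no p. With centring on the line alone the same 3 genes led for IRS2, and MARCH3 took the place of SPSB1 for EPHA2.

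RefSeq promoter windows of 300 bases, 250 before to 50 after a start, were found for 9 of the 10 genes (11 windows, GRCh38.p14), with none for ERBB3. Both strands were searched for ACGTG, the core of the hypoxia response element, for GTAAACA, a core bound by forkhead factors such as FOXO, and for TGACGTCA, which was added after the EPHA2 sequence had been read. The 3 do not contain one another. Of all 34943 windows, 21.4% held the first, 3.42% the second and 1.84% the third. The hypoxia core was found in IGF1R, MET, IRS1 and 1 of 2 AXL windows, and that AXL window also held the forkhead core, at position 10 after the start. In MET and IRS1 the match lay after the start, as a palindrome read on both strands. In IGF1R it began at -146 and is shown in capitals in the 150 bases before the start (chr15:98648389-98648538, plus strand), since IGF1R was a gene without a call under hypoxia.

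IGF1R: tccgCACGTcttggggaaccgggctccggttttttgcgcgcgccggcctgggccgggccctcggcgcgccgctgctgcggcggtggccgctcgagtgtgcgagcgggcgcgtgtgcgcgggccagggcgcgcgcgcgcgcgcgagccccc

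The windows of IRS2, EGFR, ERBB2 and INSR held none of the 3 motifs, and EPHA2 held only TGACGTCA. A match is a run of letters and not a bound site, and the absence of one says nothing of factors that act elsewhere.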

How the data were processed

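RNA-Seq of total and polysomal poly(A) mRNA was analysed from 32 libraries of established cell lines. Per the paper's methods, the authors mapped reads with STAR v2.5.1b to GRCh38 and GENCODE 24 (the submitters' processing notes list GRCh37, and which build the counts rest on was not settled here) and deposited RSEM v1.2.28 expected counts per gene as whole numbers, without normalisation. RSEM shares ambiguous reads among genes. Columns were matched to samples by barcode, with 0 columns without a sample.

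Protein-coding genes were filtered by filterByExpr, scaled by TMM and tested with edgeR 4.0.16 (R 4.3.3) by quasi-likelihood F tests, with 16 libraries per line in 8 groups (8 residual degrees of freedom) and 32 libraries for differences between lines. P-values were adjusted by Benjamini-Hochberg over all genes. Te was the interaction of fraction and treatment. The fits were tested on simulated data. Exon lengths and loci came from GENCODE 44, with lengths for 99.57% and 99.55% of tested genes. Replicates of each group differed by more than sampling noise.

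Alternatives were DESeq2 1.42.0, no filter beyond 1 read, replicate blocks, an offset for transcript length (loess, span 0.3), fits to 1 fraction, longest transcripts, other centring and leaving out each library. Leaving out 1 MCF10A library throughout was added after seeing the data. Members and lists were chosen with earlier results of these data known. Most named list genes were, per list and line, up to 3 called genes with the smallest adjusted p for HPP in total mRNA. A few other called genes of the lists, such as NRG1 and CBLB in MCF10A, were named outside this rule. Likeness was sought for the 2 members with most calls, ties broken by summed change.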

Additional observations from a re-analysis of the deposited data

Results flagged for a closer look

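The change of EPHA2 under HPP in polysomal mRNA differed between the lines by -1.33 ± 0.36 on the log2 scale (MDA-MB-231 minus MCF10A, adjusted p = 0.0446, joint edgeR fit). It was marked because the difference itself passed the test. EPHA2 rose in both HPP libraries of MCF10A and overlapped normoxia in MDA-MB-231. The call was lost with no filter beyond 1 read (-1.30, adjusted p = 0.0521) and when any of 7 of the 8 libraries was left out (adjusted p up to 0.3).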

How the results depend on the processing

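The counts of called members depended on the setting, with no called change reversed in sign. With DESeq2, 1 member was called for H in total and in polysomal mRNA of MCF10A and 1 for polysomal NPP in each line. DESeq2's own shares of all genes were 2.23% up and 0.68% down for total H, 2.23% and 0.985% for polysomal H, and 1.84% and 2.02% for polysomal NPP of MCF10A, and 1.02% and 1.80% for polysomal NPP of MDA-MB-231. In MDA-MB-231 it called 3 for total HPP (all genes 5.67% up and 5.50% down), and 1 and 2 for HPP against H (2.34% and 2.79%, then 4.50% and 6.42%). Between lines it called 1 for polysomal H, 1 for NPP and 2 for HPP (0.17% and 0.491%, 0.139% and 0.165%, 2.54% and 2.25% of all genes). With no filter beyond 1 read the counts were 1 for H in each fraction of MCF10A, 1 for its total HPP, 1 for total NPP of MDA-MB-231, 3 and 4 for its total and polysomal HPP (all genes 7.20% up and 4.46% down, then 10.5% and 5.38%), 1 and 2 for HPP against H, 2 between lines in normoxia and 0 for the line difference in polysomal HPP. With the length offset they were 1 for H in each fraction and 1 for polysomal NPP of MCF10A, 2 for total HPP of MDA-MB-231 (all genes 7.11% up and 8.42% down) and 2 for the line difference in polysomal HPP (3.62% and 2.43%). That offset also called IRS1 lower for total and polysomal HPP of MCF10A, beside 10.9% and 15.3% of all genes lower. Fits to 1 fraction called 0 for total HPP of MCF10A against N and against H, and 2 for polysomal HPP against H in MDA-MB-231.

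Groups have 2 replicate numbers each, and the labels name no day or batch that a number shares, so the numbers were not taken as pairs. Differences between replicates correlated over genes by 0.283 to 0.778 among the total groups of MCF10A, all 6 group pairs over 0.1, by -0.1 to 0.635 among its polysomal groups, and by -0.641 to 0.214 between its fractions. In MDA-MB-231 they lay between -0.187 and 0.348. A replicate block called 2 for total HPP of MDA-MB-231 (all genes 8.82% up and 9.56% down), 1 for its polysomal HPP against H and 3 between lines in normoxia. A replicate block within each fraction called 1 for H in each fraction, 1 for polysomal NPP and 4 for polysomal HPP of MCF10A (all genes 16.6% up and 19.8% down), 1 for polysomal HPP against H in MDA-MB-231, and 1 and 2 for the line differences in polysomal H and HPP. That block also called IRS1 lower for total HPP of MCF10A, beside 14.9% of all genes lower. For the other counts above 0 in these settings, the share of all genes called in either direction lay between 0.0528% and 9.84%, and between 13.3% and 20.2% for the lines in normoxia. A replicate block by culture called 0 for Te and for loading in normoxia.

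Leaving out 1 library gave, in MCF10A, 0 to 3 called for total HPP (4.26% to 19.3% of all genes in the same fits), 1 to 3 for polysomal HPP (7.56% to 27.7%), 0 to 1 for H (0.238% to 2.11% in total, 0.373% to 2.05% in polysomal mRNA) and 0 to 1 for HPP against H (0.529% to 5.85% and 0.984% to 9.41%). In MDA-MB-231 it gave 0 to 1 for total H (0.395% to 0.922%), 0 to 0 for total HPP (3.93% to 9.06%), 0 to 2 for polysomal HPP (5.73% to 11.2%) and 0 to 3 for total HPP against H (0.167% to 5.53%). Between lines it gave 1 to 5 in normoxia (28.6% to 44.8%) and 0 to 2 for polysomal HPP (1.42% to 5.22%). A group with 1 library left was assumed to vary like the others. MCF10A's larger spread (biological coefficient of variation 0.325 against 0.15) limits what its libraries can show. Over all genes, 28 of 31 comparisons had a count of calls over 1.5 times away from the main one in at least 1 setting. For total HPP of MCF10A it was 1956, 988 with a fit to 1 fraction and 3484 with the replicate block within each fraction. For polysomal HPP of MCF10A it was 2910, 2558 with no filter and 4785 with that block. In MDA-MB-231 total HPP gave 1786, with 1169 and 2608 in the same settings as for MCF10A total mRNA. Total H of MCF10A gave 202, with 47 in a fit to 1 fraction and 496 with DESeq2, and polysomal H 195, with 142 and 549.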

Other observations

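The other genes of the pathway were compared between the lines in normoxic total mRNA. Of 37 other receptor tyrosine kinases tested in the joint fit, 17 were higher and 10 lower in MDA-MB-231, with a median log2 difference of 0.76. Of 16 ligands, 3 were higher and 7 lower (median -0.87). Among the 20 negative regulators 6 were higher and 2 lower (0.32), among 22 adaptor and PI3K genes 5 and 3 (0.22), and among 12 FOXO targets 6 and 1 (1.11). These counts stand beside 20.3% of all genes higher and 20.5% lower.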
